A study of Mus musculus with 16 samples.

Results

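Interferon-stimulated genes, the transcripts that cells switch on when interferon binds its receptors, were measured in blood-forming stem and progenitor cells of mice with and without an intact enhancer of Gata2, the gene of a transcription factor that such cells require. The set held 59 genes, taken as a list of known type I and type II interferon response genes and matched by symbol, out of 53342 genes in the deposited tables. Each of the 59 passed the filter on low counts that left 16482 genes to test. The matching rule used no measured value. The mutant mice were Gata2 +9.5(Ets)-/-, in which a single-base change, a C-to-T transition per the series title, alters an Ets motif of the +9.5 enhancer within a Gata2 intron. Wild-type (WT) mice were the comparison, all on the C57BL/6J background and aged 8 to 14 weeks. Mice of each genotype received 5-FU (5-fluorouracil, which is toxic to cycling cells) at 250 mg/kg, or phosphate-buffered saline (PBS), and marrow was taken 10 days later. The groups were 3 mutant samples after 5-FU, 3 WT samples after 5-FU, 5 mutant samples after PBS and 5 WT samples after PBS. LSK cells were sorted by flow cytometry as Sca1+ and c-Kit+ cells that lacked B220, CD3, CD4, CD5 and CD8, with 3000 to 10000 cells per sample. The mutation leaves the Gata2 transcript itself whole, so the Gata2 level does not check the genotype labels. The labels do not say whether replicates of a group came from separate mice, so p-values describe the spread between these samples.

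Type I interferons (the alpha and beta family) signal through the receptor chains IFNAR1 and IFNAR2, and type II interferon (gamma) through IFNGR1 and its partner IFNGR2. Receptor-bound kinases then activate transcription factors that bind the interferon-stimulated response element, STAT2 and IRF9 among them, or the gamma-activated site. The induced proteins block virus replication, degrade nucleic acids, present antigen and limit the response itself. In blood stem cells interferon is known to drive cells out of rest.

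Libraries held between 19370153 and 28883365 expected counts. The 10 LSK markers checked (among them Kit, Ly6a, Cd34, Hlf and Mecom) were each detected in every group, with a summed level of 1471 to 1755 CPM (counts relative to library size, scaled by TMM factors) after 5-FU in the mutant, 1925 to 2282 CPM after 5-FU in WT, 2167 to 4436 CPM under PBS in the mutant and 2600 to 5069 CPM under PBS in WT. The LSK markers did not move alike. After 5-FU the log2 difference of Slamf1 was 1.98 in the mutant and 3.11 in WT, and that of Flt3 -4.13 and -1.78. By the test used below, Gata2 (1.48) and Mecom (1.35) also passed in WT only, and Cd34 (-1.57) in the mutant only. For mutant against WT the log2 difference was -2.56 for Flt3 and -1.67 for Cd34 after 5-FU, and 1.93 for Slamf1 under PBS. Ly6a, which encodes Sca1, is itself induced by interferon. Immunoglobulin genes took 26.6, 16.9 and 5.69% of counts in the mutant 5-FU libraries and 0.21, 0.039 and 0.332% in the WT 5-FU libraries. Under PBS they took 28.9, 34.4, 50.2, 12.2 and 3.67% in the mutant and 31.1, 36.0, 44.2, 25.2 and 6.37% in WT. The 8 plasma cell markers summed to between 2268 and 19310 CPM in mutant 5-FU libraries, 137 and 376 CPM in WT 5-FU libraries, 1558 and 74103 CPM in mutant PBS libraries and 3129 and 64786 CPM in WT PBS libraries. The 10 monocyte and macrophage markers summed to 511 to 941 CPM after 5-FU in the mutant, 30.5 to 140 CPM after 5-FU in WT, 548 to 10636 CPM under PBS in the mutant and 723 to 7752 CPM under PBS in WT. The 7 neutrophil markers reached at most 84.9 CPM in mutant and 34.1 CPM in WT 5-FU libraries, against at least 3639 CPM in mutant and 2895 CPM in WT PBS libraries. The 8 B cell markers summed to at most 451 CPM in mutant and 34.9 CPM in WT 5-FU libraries (Pax5 at 0 in the WT ones), against at most 1315 CPM in mutant and 1109 CPM in WT PBS libraries. The 9 T and NK cell markers reached at most 182 CPM in mutant 5-FU, 214 CPM in WT 5-FU, 388 CPM in mutant PBS and 541 CPM in WT PBS libraries, with Cd3e at 0 in all 5-FU libraries. Cd3g, Cd2 and Gzma were also at 0 in the WT 5-FU libraries. Gene by gene these sums hide a difference. The median log2 difference of the 9 was 5.8 for mutant against WT after 5-FU, and -6.56 for 5-FU against PBS in WT. The 9 markers of plasmacytoid dendritic cells, interferon producers, reached at most 245 CPM in mutant 5-FU, 192 CPM in WT 5-FU, 457 CPM in mutant PBS and 504 CPM in WT PBS libraries. Of these Siglech, Klk1 and Cd209d were at 0 in all 5-FU libraries, and Bst2 is itself induced by interferon. The part of these cell types in the results that follow was not tested. In such bulk samples fewer cells of a type and less RNA per cell cannot be told apart.

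In WT cells 5-FU moved interferon genes both ways. Zbp1 (a sensor of unusual nucleic acid), Isg20 (an exonuclease), Ifit3 and Mx1 (of antiviral protein families) and the GTPase genes Gbp6, Gbp8 and Gbp9 fell, while Oas2 (which makes the signal that activates RNase L), Ifih1 (an RNA sensor) and Nlrc5 (an activator of antigen presentation genes) rose. These were 10 of 59 genes (16.9%) past an adjusted p of 0.05 by edgeR's quasi-likelihood test with Benjamini-Hochberg adjustment over all genes, where 14.9% of all genes tested passed. The 3 that rose were 5.08% of the set, against 5.55% of all genes. The 7 that fell were 11.9%, against 9.31% of all genes. Without adjustment 21 of 59 (35.6%) passed, against 36.9% of all genes. The WT groups did not overlap for 8 genes higher after 5-FU (13.6%, against 16.0% of all genes) and 10 lower (16.9%, against 15.8%). These shares were near those of all genes tested. The median log2 difference was 0.05 for the set and -0.11 for all genes tested.

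The count in WT changed with the libraries used. It was 0 without WT 5-FU replicate 1, 0 without WT 5-FU replicate 2 and 5 without WT 5-FU replicate 3 (Ifit3, Mx1, Gbp6, Zbp1 and Isg15, each lower). Without replicate 1 the log2 values were -1.65 for Ifit3 (SE 0.47, adjusted p 0.0605), -2.54 for Isg20 (SE 0.78, adjusted p 0.0752) and -2.68 for Zbp1 (SE 0.87, adjusted p 0.0888), with 2 libraries left in that group. With all libraries these 3 values were -1.61, -2.48 and -2.61. The share of all genes that passed in these fits is not given here, so the drop in counts is not shown to be particular to the set. With the log2 of each library's immunoglobulin percentage added to the model, as in later uses, the count was also 0, when 0.133% of all genes passed. That percentage was at most 0.332 in WT 5-FU libraries, and at least 6.37 in WT PBS and 5.69 in mutant 5-FU libraries. Across this gap the fit carries a slope estimated within groups. For the WT response, the genotype difference after 5-FU and the interaction it therefore cannot separate the share from the groups. Each library's description holds a code, written with or without a leading zero, and the labels do not say what the code records. All mutant 5-FU codes had the zero and no WT 5-FU code had it, so after 5-FU the way of writing and the genotype cannot be told apart. Under PBS the libraries with no zero also had the smallest immunoglobulin shares of each genotype, so there it cannot be told apart from the share. Among WT libraries with no leading zero, 3 genes passed (Gbp6, Gbp9 and Gbp8, each lower), and within the code prefix shared by WT 5-FU replicate 3 and WT PBS replicates 4 and 5 the count was 1 (Ifitm1, higher), with that lone 5-FU library assumed to vary like the other groups. Without PBS replicate 3 of both genotypes, a choice made after the data were seen, 12 passed, including all 10. The share of all genes is not given for that fit either. On log2(TPM + 1) with limma, where the median of all genes was 1.01 higher after 5-FU, 26 passed in WT, 24 of them higher and 2 (Zbp1 and Isg20) lower, so direction here is relative to the TMM scale.

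In mutant cells 1 of 59 genes passed after 5-FU (1.69%, against 2.2% of all genes tested). It was Oas1a, a maker of the RNase L signal like Oas2, which rose 1.81-fold. Without adjustment 5 of 59 (8.47%: Oas1a, Oas2, Ifnar2, Irf1 and Samhd1) passed, against 13.1% of all genes. The mutant groups did not overlap for 3 genes higher after 5-FU (Oas1a, Oas2 and Irf7, 5.08% of the set against 5.05% of all genes) and 1 lower (Ifnar2, 1.69% against 4.94%). The median log2 difference was 0.08 for the set and -0.03 for all genes. The call of Oas1a was lost when any 1 of mutant 5-FU replicates 1, 2 and 3 or mutant PBS replicates 1, 3, 4 and 5 was left out. Among mutant libraries with a leading zero 3 genes passed (Oas2 and Stat2 higher, Ifnar2 lower), and within the code prefix shared by all mutant 5-FU libraries and mutant PBS replicates 1 and 2 the count was 5 (Oas2, Ifit2 and Ifih1 higher, Ifnar2 and Irf1 lower).

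Between genotypes no interferon gene passed. After 5-FU the count was 0 of 59 (1.95% of all genes tested passed), with 10 of 59 (16.9%) under an unadjusted p of 0.05 against 18.4% of all genes. DESeq2 called 2 (Ifit3 and Zbp1, both higher in the mutant). The mutant and WT 5-FU libraries did not overlap for 8 genes higher in the mutant (Ifit3, Zbp1, Samhd1, Isg15, Isg20, Gbp9, Gbp8 and Ifi27, 13.6% against 21.5% of all genes). They did not overlap for 8 lower (Nlrc5, Ifnar1, Adar, Parp9, Ddx58, Stat2, Tap2 and Eif2ak2, 13.6% against 18.0%). The median log2 difference was 0.04 for the set and 0.07 for all genes.

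Under PBS the count was also 0 of 59 (0.0182% of all genes tested), with 2 of 59 (Mx1 and Gbp9, 3.39%) under an unadjusted p of 0.05 against 3.28% of all genes, and 0 by DESeq2. No gene of the set had groups that did not overlap, against 0.322% of all genes higher and 0.303% lower in the mutant. Log2 differences ran from -1.10 to 0.25 with a median of -0.07 (all genes -0.02) and a median SE of 0.28. Among libraries with a leading zero and among those without, the count was 0 in each.

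The response to 5-FU was compared between genotypes through the interaction, the mutant response minus the WT response. No interferon gene passed (0 of 59, against 0.589% of all genes), with 10 of 59 (16.9%) under an unadjusted p of 0.05 against 10.8% of all genes. DESeq2 called 1, Gbp9. In a fit blocked on replicate numbers, which outside the PBS groups pair samples by number alone, 3 passed, when 2.32% of all genes did: Gbp9 (2.09, adjusted p 0.0222), Zbp1 (2.74, adjusted p 0.0239) and Samhd1 (0.96, adjusted p 0.0239). With limma-voom and sample quality weights, also with no block, 5 passed (Ifit3, Gbp9, Zbp1, Samhd1 and Mx1, each higher), and the share of all genes is given below. In the main edgeR fit, which had no block, the genes lower after 5-FU in WT and not past the threshold in the mutant are not shown to respond differently by genotype. Whether some of them pass thus depended on the method.

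**Figure D1:**
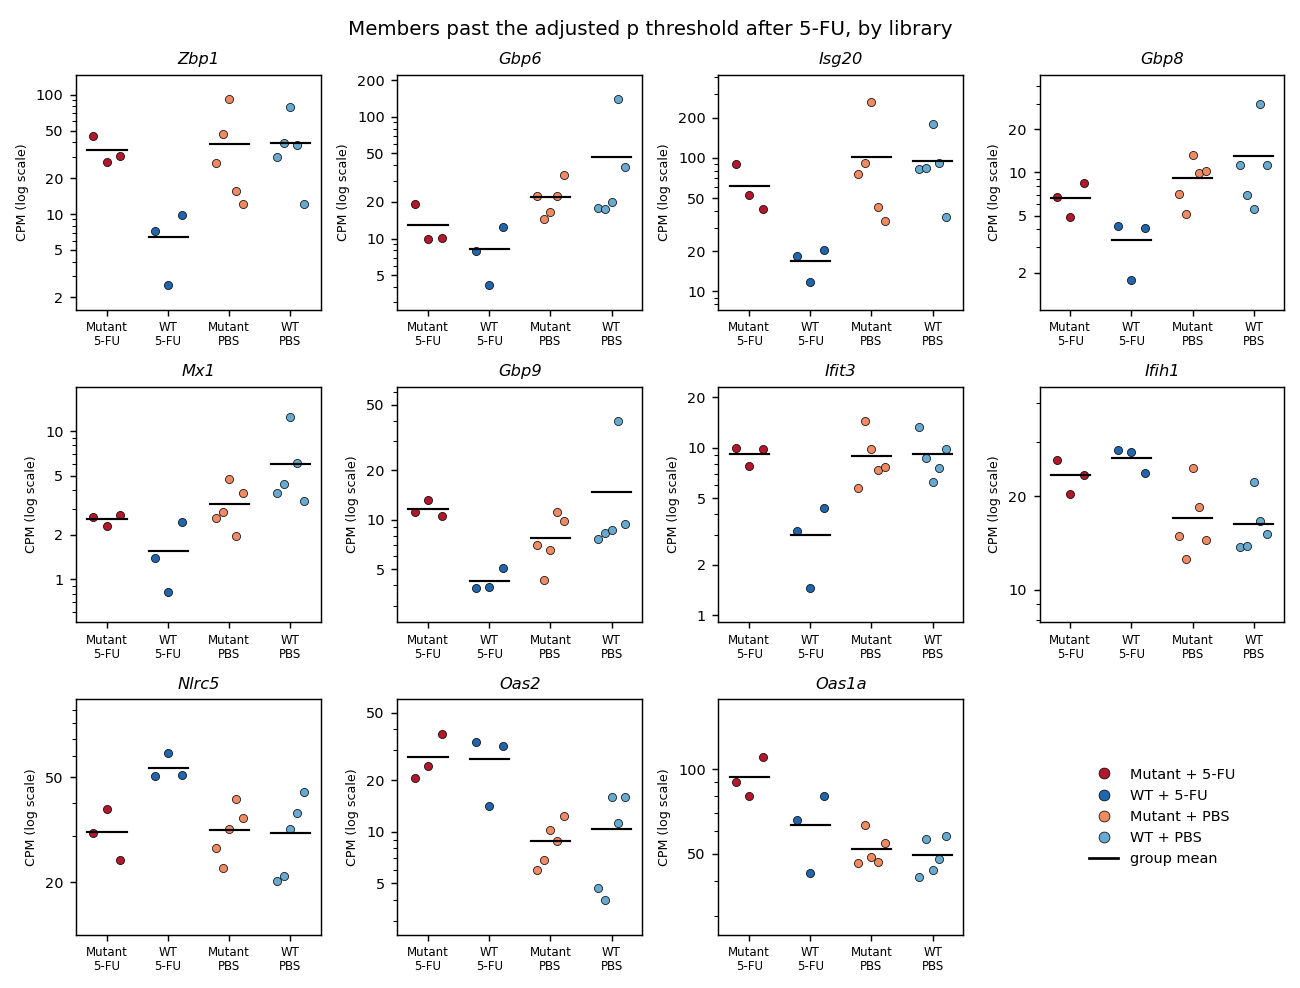
Each panel plots CPM on a log axis for 1 of the 11 genes past the adjusted p threshold after 5-FU in WT or mutant cells, with 1 point per library and a line at the group mean (3, 3, 5 and 5 libraries). Zbp1 in the 3 WT 5-FU libraries sat between 2.53 and 9.73 CPM, below the lowest WT PBS library at 12.2 CPM, while Oas1a in the mutant 5-FU libraries sat between 80.2 and 111 CPM, above the mutant PBS libraries.

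**Figure D2:**
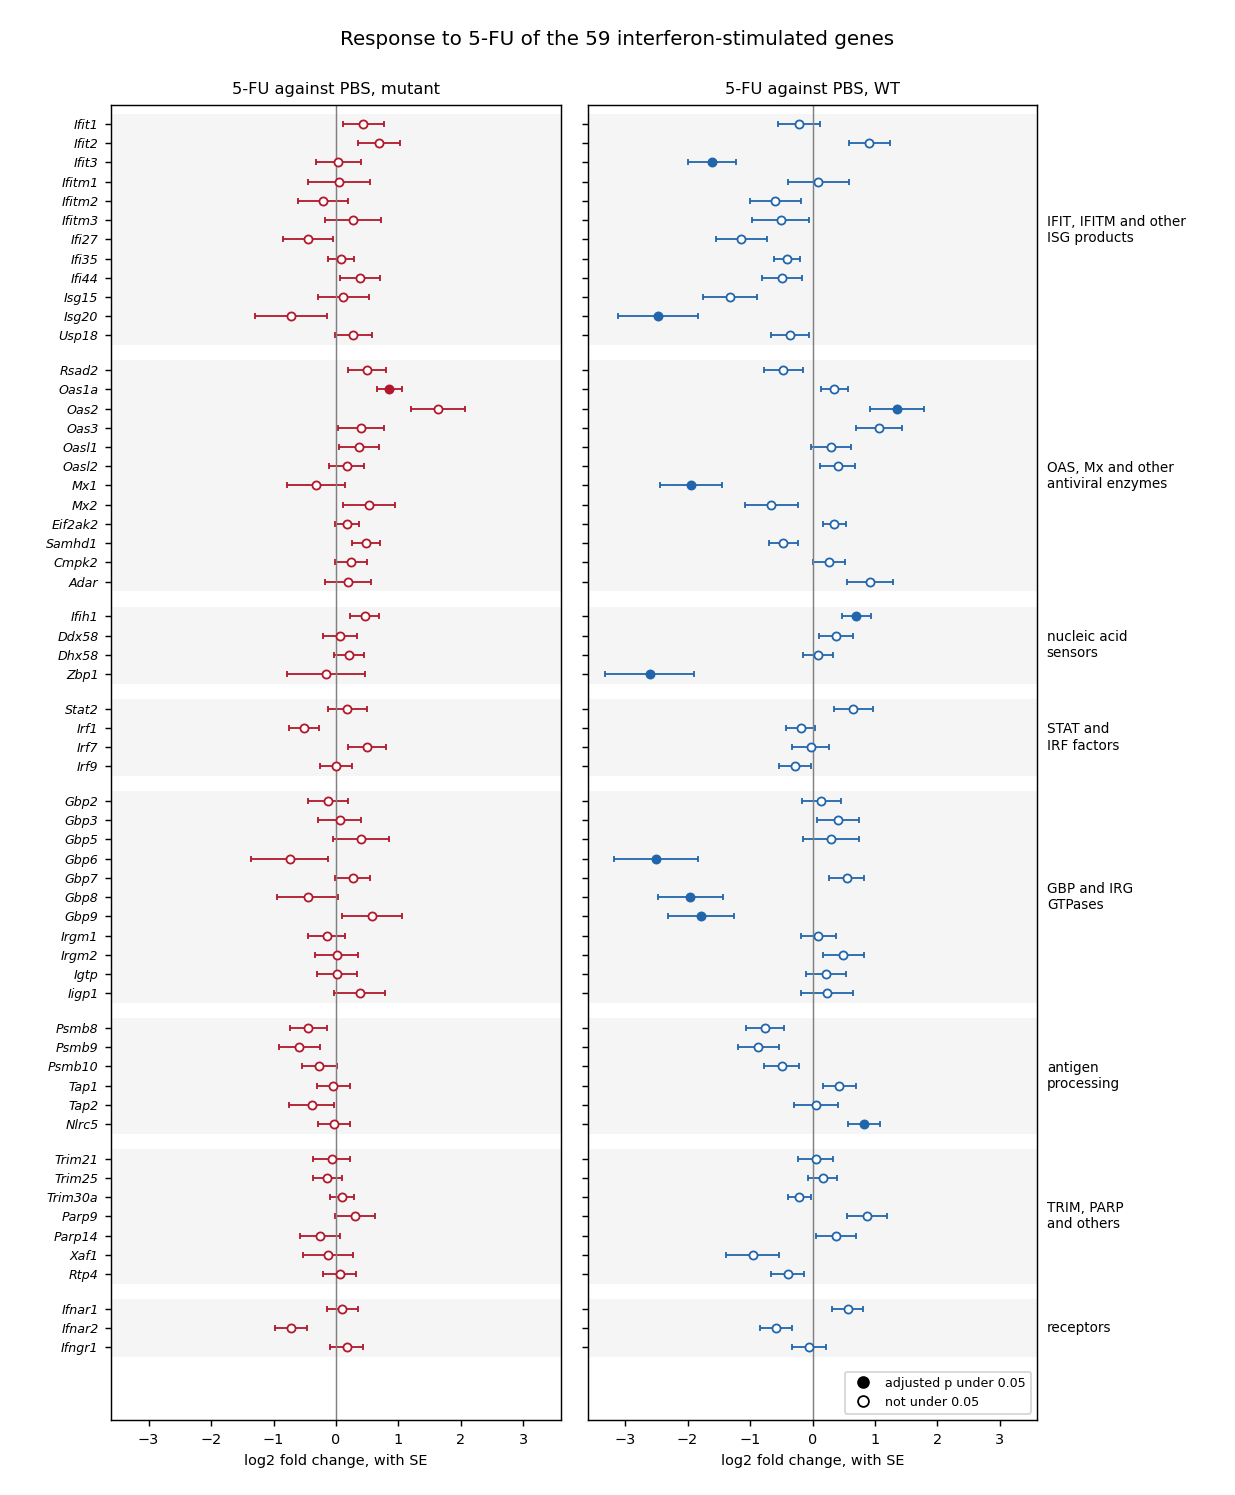
The log2 fold change of 5-FU against PBS is plotted with its SE for all 59 genes by role, in the mutant and in WT, with filled points for an adjusted p under 0.05. In WT 7 filled points lie left of 0 and 3 right of 0, and in the mutant the single filled point is Oas1a at 0.85.

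The interferons themselves were all but undetected. Of 21 ligand genes 1 passed the filter on counts, and their summed level stayed under 1 CPM in every library, with a highest value of 0.393 CPM in mutant 5-FU, 0.418 CPM in WT 5-FU, 0.528 CPM in mutant PBS and 0.998 CPM in WT PBS libraries. Ifnb1, the gene of interferon beta, was read 0 times in all 16 libraries. A count of 3 in a library, the limit that a reading of 0 allows for counting error, came to between 0.0798 and 0.272 CPM.

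Receptor genes were present throughout, and none of the 3 in the set passed the adjusted threshold in the fit over all 16 libraries. Ifnar2 was the most abundant of them per length, with a mean of 123 TPM (transcript abundance relative to library size and transcript length) over all libraries, against 85.0 TPM for Ifngr1 and 24.1 TPM for Ifnar1. Ifnar2 read 139, 110 and 113 CPM in mutant 5-FU libraries and 122, 113 and 152 CPM in WT 5-FU libraries. Under PBS it read 183, 203, 311, 152 and 146 CPM in the mutant and 178, 190, 272, 176 and 154 CPM in WT. Within each genotype every 5-FU library lay below every PBS library, with a log2 difference of -0.72 (SE 0.26, adjusted p 0.201) in the mutant and -0.59 (SE 0.26, adjusted p 0.111) in WT. Ifngr1 read 123, 130 and 169 CPM after 5-FU in the mutant and 121, 106 and 160 CPM after 5-FU in WT. It read 123, 121, 72.9, 171 and 135 CPM under PBS in the mutant and 172, 143, 79.0, 130 and 147 CPM under PBS in WT, so all groups overlapped.

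Downstream of the receptors, Irf1, Irf7, Irf9 and Stat2 carried no call in any comparison of the main edgeR fit. Stat2 and Irf1 each passed in a mutant subset given above. Calls given below with no setting named are those of the main fit. The responses of Irf7 and Stat2 were 0.50 (SE 0.30) and 0.18 (SE 0.31) in the mutant, against -0.03 (SE 0.30) and 0.65 (SE 0.31) in WT, at adjusted p of 0.14 or more. Irf1, an early interferon gamma target that itself binds promoters of other genes in the set, read 121, 95.1 and 87.6 CPM in mutant 5-FU libraries and 116, 96.9 and 153 CPM in WT 5-FU libraries. The PBS libraries read 174, 157, 88.8, 143 and 158 CPM in the mutant and 160, 121, 107, 169 and 141 CPM in WT. The response of Irf1 was -0.51 on the log2 scale in the mutant (SE 0.24, adjusted p 0.369), with overlapping groups. Irf9, whose protein binds DNA together with STAT2, read 121, 72.8 and 80.2 CPM after 5-FU in the mutant and 78.2, 63.3 and 97.3 CPM after 5-FU in WT. It read 117, 100, 47.1, 96.9 and 96.5 CPM under PBS in the mutant and 102, 92.0, 71.7, 109 and 108 CPM under PBS in WT. The lowest PBS library of each genotype for Irf9 was replicate 3, which had the largest immunoglobulin share.

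The promoter of Irf1 is shown because it carries the textbook gamma-activated site. Promoter windows, 250 bases before to 50 after the start of a gene, came from RefSeq (GRCm38.p6) and held 43 of the 59 genes. They were searched on both strands for GAAA, any 2 bases and GAAA again (the ISRE-type motif, after the interferon-stimulated response element, which reads TTTC, 2 bases and TTTC on the other strand) and for TTCNNNGAA (the GAS-type motif, after the gamma-activated site, the same on both strands). The ISRE-type motif was present in 21 of 43 promoters (48.8%) and in 3.99% of all 27025 promoters, and the GAS-type motif in 16 (37.2%) and 9.55%. Both were present in 7 promoters of the set and neither in 13. A match of letters is no evidence of binding. Capitals mark the GAS-type match in the 60 bases shown for Irf1 (chr11:53769899-53769958, plus strand).
Irf1: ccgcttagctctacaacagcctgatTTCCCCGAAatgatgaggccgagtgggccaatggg

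The IFIT, IFITM and other ISG products, 12 genes, held the most abundant transcripts of the set and 2 of the 7 that fell in WT. Ifitm1 and Ifitm3, whose membrane proteins block virus entry, had mean levels of 894 and 876 TPM. Ifitm3 read 625, 443 and 631 CPM in mutant 5-FU libraries and 312, 238 and 547 CPM in WT 5-FU libraries. Under PBS Ifitm3 read 460, 477, 775, 313 and 316 CPM in the mutant and 324, 588, 1145, 263 and 281 CPM in WT. Its groups overlapped in each comparison within a genotype, with a log2 response of 0.27 (SE 0.45, adjusted p 0.87) in the mutant and -0.51 (SE 0.46, adjusted p 0.428) in WT. Ifitm1 read 500, 267 and 332 CPM after 5-FU in the mutant and 384, 266 and 740 CPM after 5-FU in WT. It read 319, 296, 670, 234 and 247 CPM under PBS in the mutant and 281, 456, 985, 213 and 248 CPM under PBS in WT. Replicate 3 was the highest PBS library of both genotypes for both genes.

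Ifit3 (chromosome 19, 34583531 to 34588731, plus strand), whose protein binds other IFIT proteins, showed the smallest adjusted p of the set in WT. It read 9.91, 7.80 and 9.87 CPM in mutant 5-FU libraries and 3.19, 1.46 and 4.37 CPM in WT 5-FU libraries. With PBS alone it read 5.72, 14.4, 9.78, 7.36 and 7.65 CPM in the mutant and 13.3, 8.71, 6.26, 7.56 and 9.77 CPM in WT. All WT 5-FU libraries thus lay below every other library. Ifit3 fell after 5-FU in WT by 1.61 on the log2 scale (SE 0.39, adjusted p 0.0141). The mutant response was 0.04 (SE 0.36, adjusted p 0.983), and after 5-FU the mutant exceeded WT by 1.61 (SE 0.41, adjusted p 0.0545). The interaction was 1.64 (SE 0.51, adjusted p 0.196). Ifit3 has a near copy, Ifit3b, which read 2.36, 1.11 and 3.10 CPM in mutant 5-FU libraries and 1.12, 0.239 and 1.03 CPM in WT 5-FU libraries, and reads shared by the copies could be split between them. Near copies were also summed, here and below, a choice made after the data were seen. The WT response of Ifit3 was then -1.59 (SE 0.38, adjusted p 0.0129). Ifit1 and Ifit2, neighbours on the same chromosome, did not pass: the WT response of Ifit1 was -0.22 (SE 0.34, adjusted p 0.66) and that of Ifit2 was 0.91 (SE 0.33, adjusted p 0.0719).

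Ifit2 read 17.3, 28.3 and 28.4 CPM in mutant 5-FU libraries and 35.4, 35.9 and 24.0 CPM in WT 5-FU libraries. It read 10.1, 13.5, 11.8, 18.4 and 22.3 CPM under PBS in the mutant and 19.7, 13.4, 7.44, 19.7 and 24.2 CPM under PBS in WT. Groups overlapped in both genotypes, and the mutant response was 0.69 (SE 0.34, adjusted p 0.398). The promoters of Ifit1 and Ifit3 are shown because the genes are neighbours of 1 family, of which Ifit3 passed the test in WT and Ifit1 did not, a difference that was not tested; both hold the ISRE-type motif on the minus strand, in capitals, as 2 matches in the Ifit1 window (chr19:34640779-34640838, plus strand) and 1 in the Ifit3 window (chr19:34583382-34583441, plus strand).
Ifit1: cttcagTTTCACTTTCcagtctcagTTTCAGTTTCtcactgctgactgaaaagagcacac
Ifit3: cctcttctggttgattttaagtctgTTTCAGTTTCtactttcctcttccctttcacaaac

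Isg20 (chromosome 7, 78913424 to 78920396, plus strand), an RNA-degrading exonuclease, read 90.4, 52.4 and 41.4 CPM in mutant 5-FU libraries and 18.4, 11.7 and 20.5 CPM in WT 5-FU libraries. Under PBS it read 75.1, 91.8, 262, 43.0 and 33.9 CPM in the mutant and 82.1, 84.4, 179, 91.0 and 36.2 CPM in WT. Its highest PBS library in each genotype was replicate 3 and its lowest replicate 5, which had the largest and the smallest immunoglobulin share. Isg20 fell in WT by 2.48 (SE 0.64, adjusted p 0.0193). With the immunoglobulin percentage in the model the WT value turned to 1.87 (SE 0.80, adjusted p 0.501). The mutant response was -0.72 (SE 0.58, adjusted p 0.696), and -0.00 (SE 0.43) without mutant PBS replicate 3. After 5-FU the mutant differed from WT by 1.86 (SE 0.66, adjusted p 0.155), which turned to -1.95 with that covariate.

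Isg15, a small protein that is attached to other proteins like ubiquitin, read 22.9, 12.4 and 22.1 CPM in mutant 5-FU libraries and 7.44, 3.80 and 11.4 CPM in WT 5-FU libraries. The PBS libraries read 13.1, 21.1, 30.7, 10.4 and 13.0 CPM in the mutant and 12, 24.0, 28.8, 16.7 and 12.7 CPM in WT. The WT 5-FU libraries lay below every WT PBS library and every mutant 5-FU library, yet the WT response of -1.32 (SE 0.43) had an adjusted p of 0.0509. After 5-FU the mutant differed from WT by 1.35 (SE 0.47, adjusted p 0.15), and the interaction was 1.44 (SE 0.59, adjusted p 0.361). With the immunoglobulin percentage in the model these 2 values turned to -0.47 and -0.46, and the WT response to 0.81 (SE 0.74, adjusted p 0.648). The other members of this role, Ifitm2, Ifi27, Ifi35, Ifi44 and Usp18, carried no call, with WT responses from -1.14 for Ifi27 (SE 0.41, adjusted p 0.065) to -0.36 for Usp18 (SE 0.30, adjusted p 0.383). The windows of Isg15 (chr4:156200850-156200909, minus strand) and Isg20 (chr7:78913326-78913385, plus strand) are shown as examples of the 2 motifs: capitals mark 3 overlapping ISRE-type matches in Isg15 and 1 GAS-type match in Isg20.
Isg15: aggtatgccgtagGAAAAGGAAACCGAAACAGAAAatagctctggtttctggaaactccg
Isg20: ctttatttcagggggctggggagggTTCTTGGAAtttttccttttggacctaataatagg

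Among the OAS, Mx and other antiviral genes, 12 in all, Oas2 rose and Mx1 fell after 5-FU in WT, and Oas1a rose in the mutant. Oas2 (chromosome 5, 120730333 to 120749853, minus strand) read 20.6, 24.3 and 37.3 CPM in mutant 5-FU libraries and 33.6, 14.2 and 31.9 CPM in WT 5-FU libraries. With PBS alone it read 5.97, 6.81, 10.2, 8.83 and 12.4 CPM in the mutant and 4.70, 4.01, 16.1, 11.2 and 16.1 CPM in WT. It averaged 27.4 ± 8.77 CPM after 5-FU and 8.85 ± 2.59 CPM under PBS in the mutant (SD, n = 3 and 5), and 26.6 ± 10.7 and 10.4 ± 5.88 CPM in WT. Oas2 rose in WT by 1.35 (SE 0.43, adjusted p 0.0462) although WT 5-FU replicate 2 fell within the PBS range. In the mutant the groups did not overlap, with a larger difference of 1.63 (SE 0.43) at an adjusted p of 0.0626. The responses differed between genotypes by 0.28 (SE 0.62, adjusted p 0.871), a 95% interval from -0.94 to 1.5.

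Oas1a (chromosome 5, 120896256 to 120907521, minus strand) read 90, 80.2 and 111 CPM in mutant 5-FU libraries and 65.9, 42.7 and 80.5 CPM in WT 5-FU libraries. It read 46.3, 63.1, 48.6, 46.5 and 54.7 CPM under PBS in the mutant and 41.1, 56.3, 43.6, 47.7 and 57.6 CPM under PBS in WT. Every mutant 5-FU library lay above the mutant PBS range, and Oas1a rose there by 0.85 (SE 0.20, adjusted p 0.0372). In WT, where groups overlapped, the response was 0.35 (SE 0.21, adjusted p 0.214), and the interaction was 0.50 (SE 0.29, adjusted p 0.555). Oas1g, a near copy outside the set, read 14.3, 18.3 and 18.5 CPM in mutant 5-FU libraries against 5.11 to 7.59 CPM in mutant PBS libraries, and rose in the mutant by 1.40 (SE 0.28, adjusted p 0.0116). Reads shared by the copies could be split between them. With the copies summed the mutant response was 0.92 (SE 0.20, adjusted p 0.0227). The 60 bases before the RefSeq start of Oas1a (chr5:120907526-120907585, minus strand) are shown since this was the 1 call in mutant cells, with 2 overlapping ISRE-type matches in capitals.
Oas1a: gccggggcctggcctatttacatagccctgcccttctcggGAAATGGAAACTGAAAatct

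Mx1 (chromosome 16, 97447035 to 97462907, minus strand), of a family of dynamin-like GTPases, was the least abundant gene of the set, with a mean of 1.37 TPM. It read 2.64, 2.28 and 2.73 CPM in mutant 5-FU libraries and 1.40, 0.825 and 2.43 CPM in WT 5-FU libraries. Under PBS it read 2.58, 2.86, 4.76, 1.96 and 3.85 CPM in the mutant and 3.80, 4.39, 12.4, 6.10 and 3.40 CPM in WT. Mx1 fell after 5-FU in WT by 1.95 (SE 0.50, adjusted p 0.0191), and the mutant response was -0.32 (SE 0.47, adjusted p 0.851). It had the smallest p of the set between genotypes under PBS, where the mutant differed from WT by -0.91 (SE 0.40) at an adjusted p of 1, and -0.48 without WT PBS replicate 3, its highest library. The interaction was 1.63 (SE 0.66, adjusted p 0.354). Its neighbour Mx2 read 1.82, 2.29, 1.59, 2.98 and 3.85 CPM in mutant PBS libraries and 3.70, 3.13, 4.08, 5.31 and 4.5 CPM in WT PBS libraries, a difference of -0.72 (SE 0.37, adjusted p 1) with overlapping groups. After 5-FU Mx2 read 5.78, 1.65 and 3.46 CPM in the mutant and 3.13, 1.52 and 3.27 CPM in WT. Mx2 is annotated as a polymorphic pseudogene.

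Samhd1, which breaks down nucleotides, read 110, 78.2 and 117 CPM in mutant 5-FU libraries and 49.3, 48.1 and 74.0 CPM in WT 5-FU libraries. It read 75.3, 73.0, 94.1, 55.3 and 66.5 CPM under PBS in the mutant and 92.0, 80.4, 99.4, 62.1 and 62.4 CPM under PBS in WT. The groups did not overlap between genotypes after 5-FU, where the mutant differed from WT by 0.83 (SE 0.26, adjusted p 0.109). Its responses to 5-FU were 0.48 (SE 0.23, adjusted p 0.372) in the mutant and -0.47 (SE 0.23, adjusted p 0.148) in WT, with an interaction of 0.96 (SE 0.32, adjusted p 0.244). Oasl2, the most abundant gene of this role per length at 56.3 TPM, read 94.0, 67.1 and 75.9 CPM in mutant 5-FU libraries and 89.0, 49.5 and 121 CPM in WT 5-FU libraries. It read 65.4, 67.7, 42.3, 85.5 and 91.0 CPM under PBS in the mutant and 58.3, 58.8, 56.1, 65.6 and 89.5 CPM under PBS in WT, with overlap throughout. The other members of this role, Rsad2, Oas3, Oasl1, Eif2ak2, Cmpk2 and Adar, carried no call. Their WT responses ran from -0.47 for Rsad2 to 1.06 for Oas3 (SE 0.37, adjusted p 0.0605).

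Of the 4 nucleic acid sensors, Zbp1 fell and Ifih1 rose in WT. Zbp1 (chromosome 2, 173206612 to 173218923, minus strand), which binds Z-form nucleic acid and can trigger cell death, read 45.4, 27.2 and 30.6 CPM in mutant 5-FU libraries and 7.14, 2.53 and 9.73 CPM in WT 5-FU libraries. The PBS libraries read 26.5, 46.7, 92.0, 15.5 and 12.2 CPM in the mutant and 30.0, 39.0, 78.3, 37.5 and 12.2 CPM in WT. It had the largest change of the set, a fall in WT by 2.61 (SE 0.71, adjusted p 0.0252). The mutant response was -0.16 (SE 0.63, adjusted p 0.951), the genotype difference after 5-FU was 2.41 (SE 0.74, adjusted p 0.108) and the interaction 2.44 (SE 0.90, adjusted p 0.291). Zbp1 was highest in PBS replicate 3 and lowest in PBS replicate 5 of both genotypes, as the immunoglobulin share was. With that share as a covariate its WT response turned to 2.23 (SE 0.78, adjusted p 0.425), its genotype difference after 5-FU to -1.65 and its interaction to -1.74. These values carry the slope of the covariate across a gap in share between WT 5-FU and the other libraries.

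Ifih1 (chromosome 2, 62595798 to 62646255, minus strand), a sensor of long double-stranded RNA, read 26.2, 20.4 and 23.5 CPM in mutant 5-FU libraries and 28.1, 27.7 and 23.8 CPM in WT 5-FU libraries. It read 14.9, 12.6, 24.7, 18.5 and 14.5 CPM under PBS in the mutant and 13.7, 13.8, 22.3, 16.6 and 15.1 CPM under PBS in WT. Each WT 5-FU library lay above every WT PBS library, and Ifih1 rose in WT by 0.70 (SE 0.23, adjusted p 0.0473). In the mutant, where PBS replicate 3 reached into the 5-FU range, the response was 0.46 (SE 0.23, adjusted p 0.419). Ddx58, which encodes the sensor RIG-I, read 66.6, 56.1 and 47.8 CPM after 5-FU in the mutant and 83.2, 84.1 and 72.8 CPM after 5-FU in WT. It read 51.6, 44.4, 33.3, 69.9 and 73.7 CPM under PBS in the mutant and 72.3, 39.7, 47.3, 69.3 and 81.3 CPM under PBS in WT. The WT response of Ddx58 was 0.37 (SE 0.27, adjusted p 0.314) and that of Dhx58, a relative of RIG-I, 0.09 (SE 0.24, adjusted p 0.801).

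The GBP and IRG genes encode GTPases that attack vacuoles of intracellular microbes, and 3 of the 11 in the set fell in WT. All 3 lie in the GBP cluster on chromosome 5: Gbp8 (105014150 to 105139540), Gbp9 (105077630 to 105139539) and Gbp6 (105270702 to 105293698), all on the minus strand. None of the 4 on chromosome 3 (Gbp2, Gbp3, Gbp5 and Gbp7) passed, with WT responses of 0.14, 0.41, 0.29 and 0.55 and adjusted p from 0.163 to 0.768. Gbp6 read 19.1, 9.86 and 10.2 CPM in mutant 5-FU libraries and 7.96, 4.18 and 12.5 CPM in WT 5-FU libraries. It read 22.4, 14.5, 16.5, 22.6 and 33.1 CPM under PBS in the mutant and 17.9, 17.4, 20.1, 139 and 39.0 CPM under PBS in WT. WT PBS replicate 4 stood above every other library for Gbp6. Gbp6 fell in WT by 2.51 (SE 0.67, adjusted p 0.0235), and by 1.51 (SE 0.43, adjusted p 0.0347) without that library.

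Gbp8 read 6.73, 4.85 and 8.47 CPM in mutant 5-FU libraries and 4.25, 1.76 and 4.07 CPM in WT 5-FU libraries. It read 7.12, 5.15, 13.3, 9.98 and 10.2 CPM under PBS in the mutant and 11.3, 6.96, 5.53, 30.2 and 11.2 CPM under PBS in WT. The fall of Gbp8 in WT was by 1.96 (SE 0.52, adjusted p 0.0231), and by 1.37 (SE 0.42, adjusted p 0.0417) without WT PBS replicate 4, again its highest library. Gbp9 read 11.1, 13.1 and 10.6 CPM in mutant 5-FU libraries and 3.83, 3.91 and 5.09 CPM in WT 5-FU libraries. It read 7.03, 4.32, 6.52, 11.2 and 9.86 CPM under PBS in the mutant and 7.70, 8.27, 8.62, 40.0 and 9.43 CPM under PBS in WT. After 5-FU all mutant libraries exceeded all WT libraries for both genes. Gbp9 fell in WT by 1.79 (SE 0.53, adjusted p 0.0336); without WT PBS replicate 4 the value was -0.97 at an adjusted p of 0.0501, and on the TPM scale it was 0.09 where the median of all genes was 1.01. The mutant response of Gbp9 was 0.57 (SE 0.48, adjusted p 0.707), and its interaction of 2.37 (SE 0.70, adjusted p 0.158) had the smallest p of the set. Without WT PBS replicate 4 the interaction was 1.53 (SE 0.42, adjusted p 0.138). The annotated loci of Gbp8 and Gbp9 overlap, so reads could be split between them. With the counts of Gbp9, Gbp8 and Gbp4 summed the WT response was -2.11 (SE 0.52, adjusted p 0.016).

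WT PBS replicate 4 was the highest of the 10 PBS libraries for each of the 6 GBP genes on chromosome 5, the members Gbp6, Gbp8 and Gbp9 and the others Gbp4, Gbp10 and Gbp11. It exceeded the median of the other 4 WT PBS libraries 7.3-fold for Gbp6, 4.73-fold for Gbp9, 3.33-fold for Gbp8, 5.09-fold for Gbp4 and 3.04-fold for Gbp10. On chromosome 3 the ratio was 0.785 for Gbp2, 1.05 for Gbp5, 1.23 for Gbp3 and 1.38 for Gbp7. Under PBS the genotype difference was -1.10 for Gbp6 (SE 0.53), -0.93 for Gbp9 (SE 0.43) and -0.52 for Gbp8 (SE 0.42), each at an adjusted p of 1. Without WT PBS replicate 4 these 3 values were -0.10, -0.10 and 0.06. Across the set this library was the highest of the 5 in 16 of 59 genes (27.1%), against 16.4% of all genes.

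**Figure D3:**
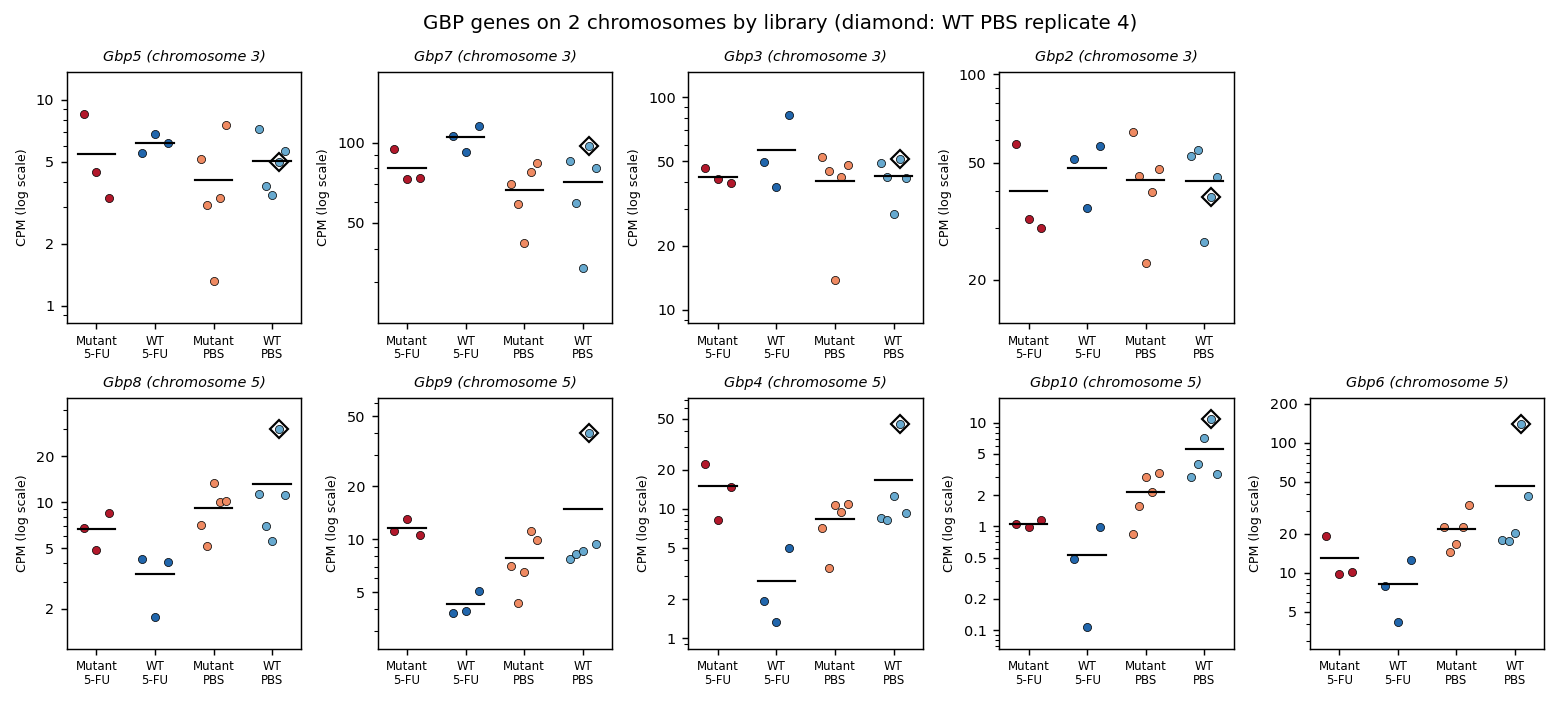
CPM on a log axis of GBP genes on chromosome 3 (upper row) and chromosome 5 (lower row), with 1 point per library, a line at each group mean and a diamond around WT PBS replicate 4. That library stands above all other PBS libraries for the chromosome 5 genes (139 CPM for Gbp6, 40.0 CPM for Gbp9) while on chromosome 3 it is at most 1.38-fold above the median of the other WT PBS libraries.

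The IRG genes Irgm1, Irgm2, Igtp and Iigp1 did not pass in any comparison of the main fit. Irgm1, the most abundant GTPase gene per length (58.6 TPM), read 87.3, 70.0 and 93.3 CPM in mutant 5-FU libraries and 93.5, 76.0 and 133 CPM in WT 5-FU libraries. It read 111, 101, 42.8, 96.7 and 111 CPM under PBS in the mutant and 104, 95.2, 60.2, 114 and 100 CPM under PBS in WT. PBS replicate 3 was its lowest library in each genotype. Igtp read 94.2, 71.5 and 70.1 CPM after 5-FU in the mutant and 73.5, 41.2 and 121 CPM after 5-FU in WT. It read 105, 91.2, 46.9, 65.6 and 79.6 CPM under PBS in the mutant and 80.7, 60.2, 46.3, 93.1 and 59.5 CPM under PBS in WT, with responses of 0.02 (SE 0.32, adjusted p 0.991) in the mutant and 0.21 (SE 0.32, adjusted p 0.648) in WT. An ISRE-type match was present in each of the 7 GTPase promoters in the table. Igtp (chr11:58199496-58199555, plus strand) and Irgm2 (chr11:58214888-58214947, plus strand) are shown because both windows hold the 2 motifs side by side, a GAS-type match and then an ISRE-type match, in capitals. The annotated loci of these 2 genes overlap, so reads could be split between them.
Igtp: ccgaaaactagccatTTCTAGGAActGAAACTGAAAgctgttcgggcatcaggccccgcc
Irgm2: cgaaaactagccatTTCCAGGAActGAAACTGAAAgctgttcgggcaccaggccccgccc

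Genes of antigen processing, 6 in the set, gave 1 call. Nlrc5 (chromosome 8, 94434356 to 94527272, plus strand), the activator of class I antigen presentation genes, read 30.7, 37.8 and 24.3 CPM in mutant 5-FU libraries and 50.4, 61.7 and 51.2 CPM in WT 5-FU libraries. With PBS alone it read 26.9, 22.7, 31.9, 41.4 and 35.2 CPM in the mutant and 20.3, 21.2, 31.9, 36.7 and 44.1 CPM in WT. WT 5-FU libraries stood above all others, and Nlrc5 rose in WT by 0.82 (SE 0.26, adjusted p 0.0448). The mutant response was -0.03 (SE 0.26, adjusted p 0.979), and after 5-FU the mutant differed from WT by -0.82 (SE 0.30, adjusted p 0.163). With the immunoglobulin percentage in the model the WT response was -0.07 (SE 0.57, adjusted p 0.971) and the genotype difference 0.01.

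The immunoproteasome subunits were abundant, with mean levels of 520 TPM for Psmb8, 239 TPM for Psmb9 and 231 TPM for Psmb10. Psmb8 read 486, 402 and 492 CPM in mutant 5-FU libraries and 357, 270 and 437 CPM in WT 5-FU libraries. It read 631, 768, 894, 438 and 398 CPM under PBS in the mutant and 499, 630, 871, 614 and 382 CPM under PBS in WT. Psmb9 read 196, 160 and 180 CPM after 5-FU in the mutant and 134, 92.7 and 173 CPM after 5-FU in WT. It read 256, 314, 438, 165 and 175 CPM under PBS in the mutant and 206, 254, 374, 224 and 165 CPM under PBS in WT. Both were highest in PBS replicate 3 of each genotype, the library with the largest immunoglobulin share. Their WT responses of -0.76 (SE 0.30, adjusted p 0.0907) and -0.87 (SE 0.33, adjusted p 0.0798) missed the threshold. The peptide transporter genes Tap1 and Tap2 were instead lowest in replicate 3, with WT responses of 0.43 (SE 0.26, adjusted p 0.23) and 0.06 (SE 0.35, adjusted p 0.918).

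TRIM, PARP and other members, 7 genes, gave no call. Rtp4, the most abundant at 87.5 TPM, read 108, 68.3 and 98.6 CPM in mutant 5-FU libraries and 68.6, 32.8 and 81.1 CPM in WT 5-FU libraries. It read 80.7, 104, 101, 77.7 and 77.9 CPM under PBS in the mutant and 69.3, 71.3, 110, 74.4 and 75.7 CPM under PBS in WT. Its groups overlapped in each comparison. Xaf1, a promoter of apoptosis, read 56.3, 28.8 and 48.8 CPM after 5-FU in the mutant and 27.0, 16.1 and 36.1 CPM after 5-FU in WT. It read 38.9, 62.6, 74.9, 32.1 and 34.5 CPM under PBS in the mutant and 36.4, 52.7, 101, 34.6 and 32.5 CPM under PBS in WT. Its WT response was -0.96 (SE 0.42, adjusted p 0.11). Trim30a read 63.6, 62.0, 45.4, 47.6 and 59 CPM in mutant PBS libraries and 60.3, 73.3, 81.4, 59.6 and 66.3 CPM in WT PBS libraries, a difference of -0.30 (SE 0.17, adjusted p 1). After 5-FU it read 75.9, 45.6 and 56.8 CPM in the mutant and 61.8, 52.5 and 62.1 CPM in WT. Parp9, Parp14, Trim21 and Trim25 had WT responses between 0.05 for Trim21 and 0.87 for Parp9 (SE 0.32, adjusted p 0.0678).

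**Figure D4:**
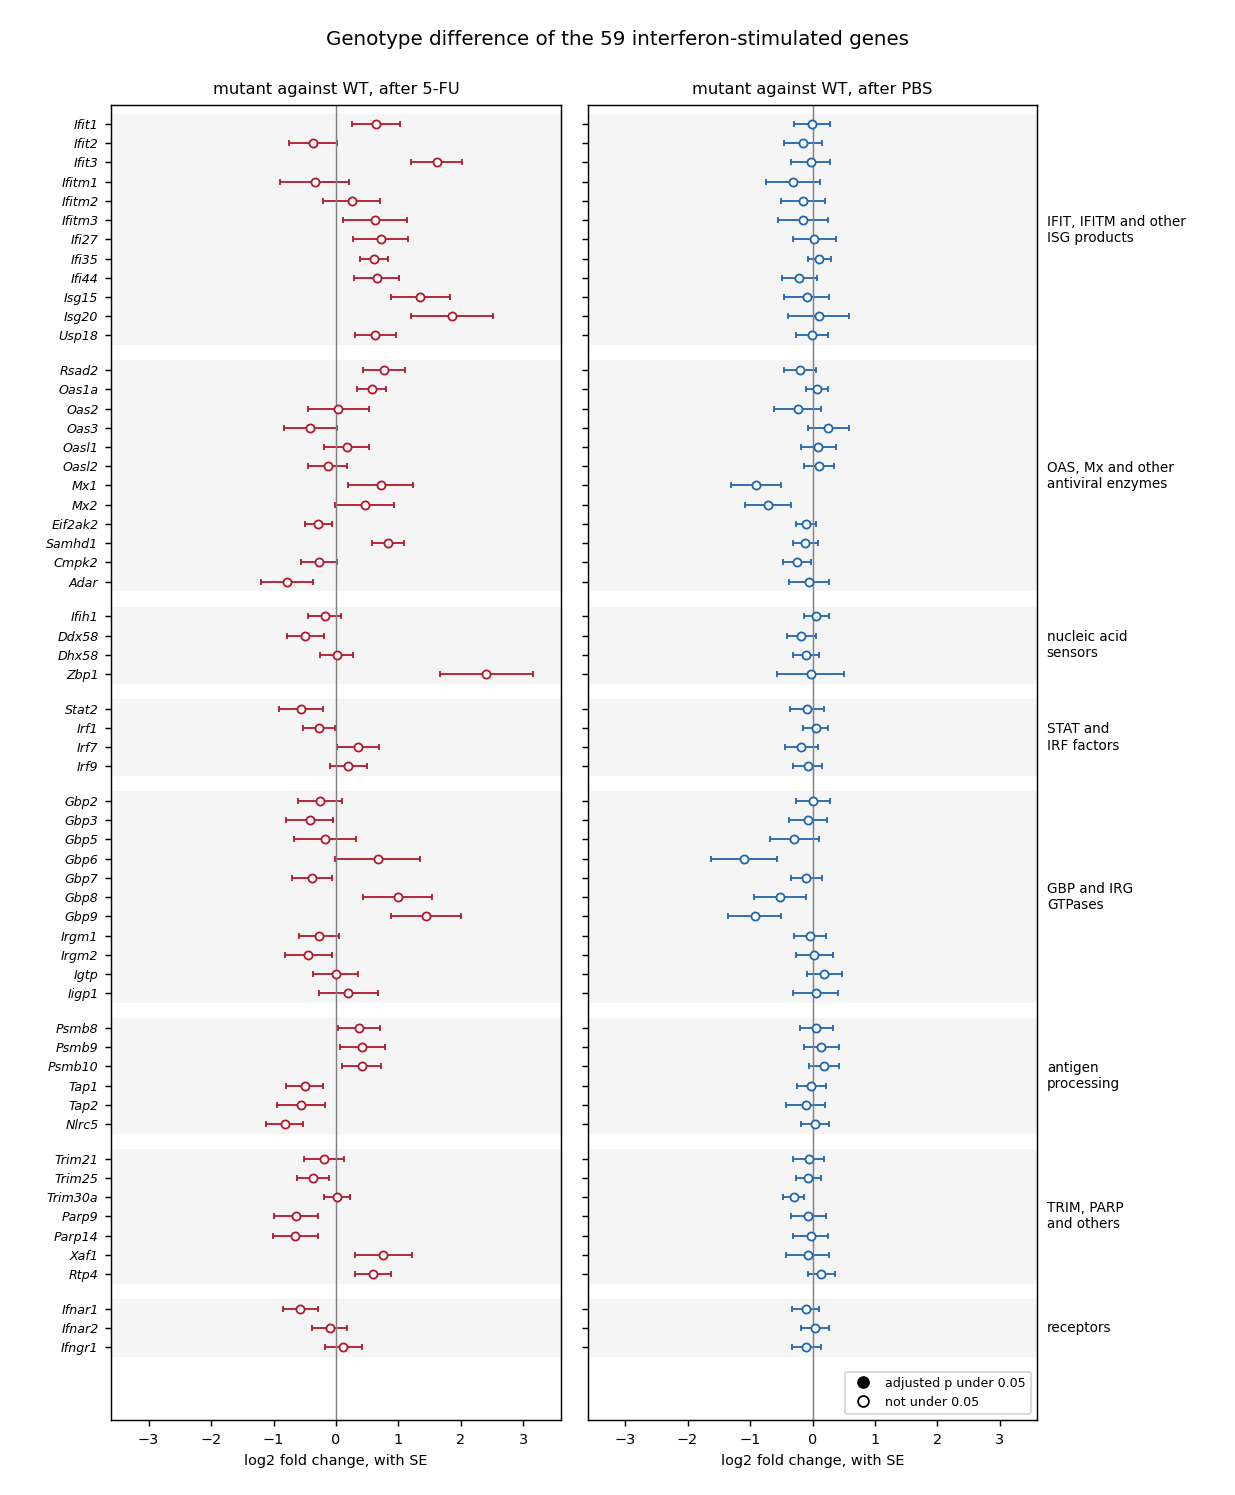
The log2 fold change of mutant against WT is plotted with its SE for all 59 genes by role, after 5-FU and after PBS. No point is filled in either panel, since none reached an adjusted p under 0.05; after 5-FU values ran from -0.82 for Nlrc5 to 2.41 for Zbp1, and after PBS from -1.10 for Gbp6 to 0.25 for Oas3.

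Within the PBS groups the set divided by library, and so did all genes tested, at the shares given beside each count. PBS replicate 3, which held the largest immunoglobulin share in the mutant (50.2%) and in WT (44.2%), was the highest library in both genotypes for 17 of 59 genes (28.8%, against 23.4% of all genes tested). These included Ifitm1, Ifitm2, Ifitm3, Ifi27, Isg15, Isg20, Zbp1, Psmb8, Psmb9, Psmb10 and Ifnar2. It was the lowest in both for 20 (33.9%, against 23.7% of all genes), including Irf1, Irf7, Irf9, Gbp2, Gbp3, Gbp5, Gbp7, Irgm1, Irgm2, Igtp, Iigp1, Tap1, Tap2, Ifnar1 and Ifngr1. PBS replicates 4 and 5, whose codes have no leading zero, stood above replicates 1 to 3 in both genotypes for 11 genes (18.6%, against 13.4%) and below them for 8 (13.6%, against 10.1%). Replicates 4 and 5 also had the smallest immunoglobulin shares of their groups, 12.2 and 3.67% in the mutant and 25.2 and 6.37% in WT. In this split the way of writing and the share cannot be told apart. These patterns were looked for after the values were seen. Which of cell content and handling moved with them was not tested.

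Within the 5-FU groups, too, the set moved by library. WT 5-FU replicate 2 was the lowest of its group for 48 of 59 genes (81.4%, against 34.4% of all genes), and replicate 3 was the highest for 43 (72.9%, against 37.9%). Replicate 3 read above replicate 2 for 49 of the 59, with a median ratio of 1.64-fold, led by Iigp1 (3.98-fold) and Zbp1 (3.85-fold). Ifit2 (0.669-fold) and Parp14 (0.632-fold) stood the other way. Over all genes read in both libraries the median log2 ratio was -0.02. The order from low to high was replicate 2, 1, 3 for 42 of the 59 (71.2%, against 25.9% of genes read in replicates 2 and 3). The immunoglobulin share had the same order, at 0.039, 0.21 and 0.332%. Replicate 3 carries another code prefix than replicates 1 and 2. The parts of the share and of the prefix were not tested. These patterns, too, were looked for after the values were seen.

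**Figure D5:**
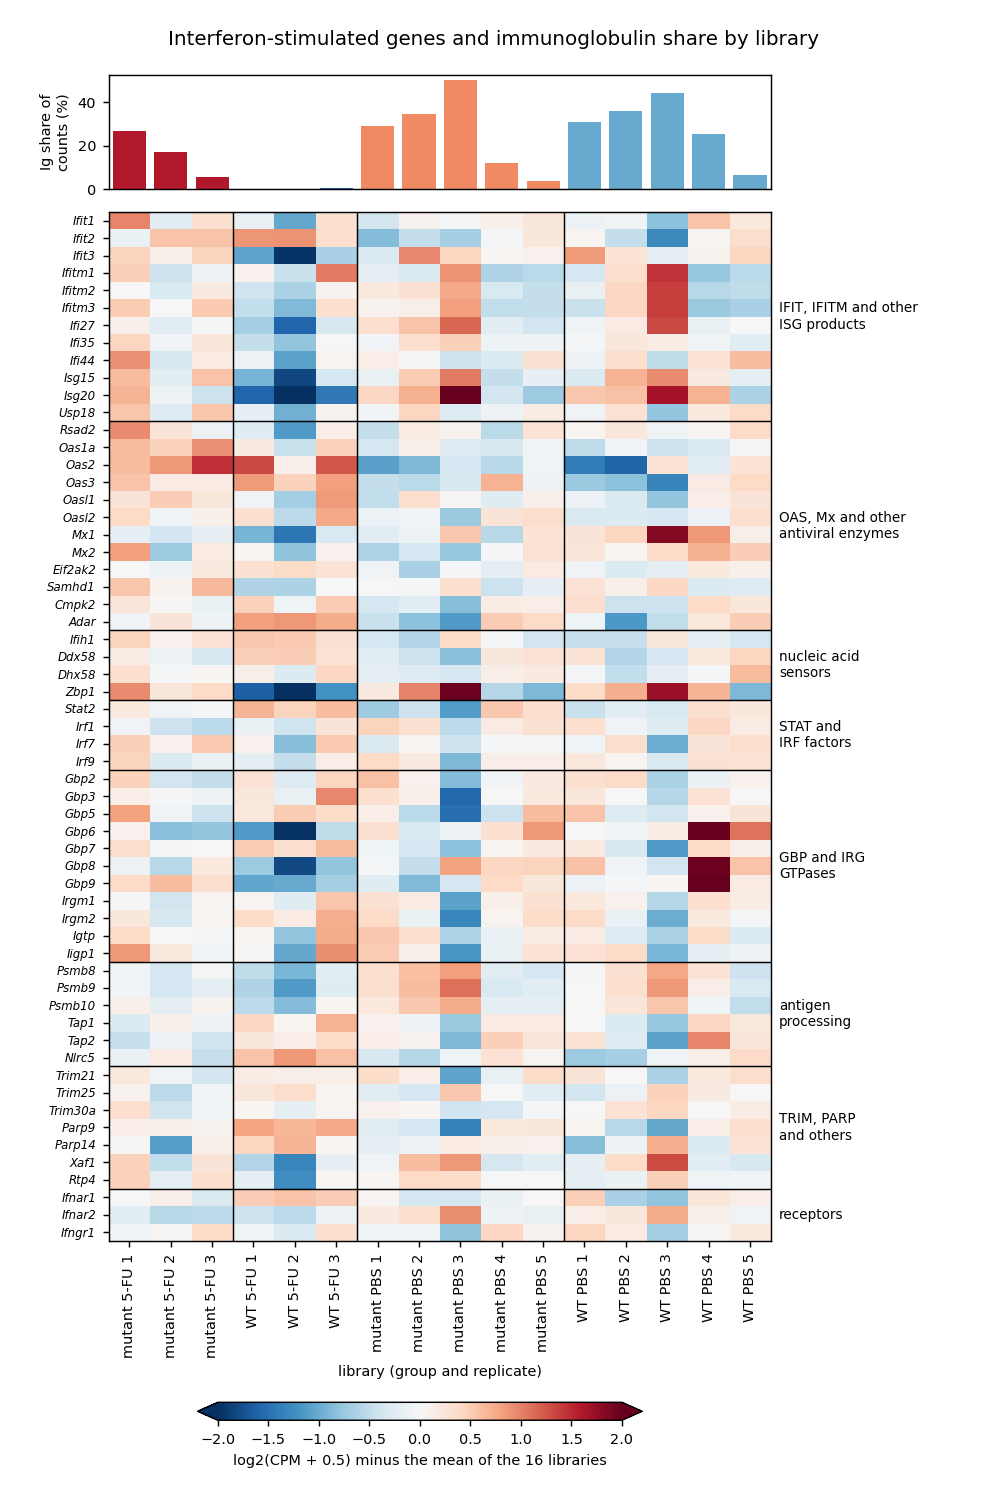
The upper bars give the immunoglobulin share of counts in percent per library, and the colours below give log2(CPM + 0.5) minus the mean of the 16 libraries for each gene, grouped by role. PBS replicate 3 of each genotype, under the tallest bars (50.2% and 44.2%), shows red for the IFITM and immunoproteasome genes and blue for most IRG genes and those of the GBP family on chromosome 3.

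Further lists of the pathway were counted, where 5.55% of all genes rose and 9.31% fell in WT, 2.2% passed in the mutant after 5-FU, 1.95% between genotypes after 5-FU and 0.589% in the interaction. Of 22 tested genes of receptors and signalling outside the set, 0 passed in the mutant after 5-FU, and 2 rose and 4 fell in WT. Stat3 (1.23, SE 0.38, adjusted p 0.041) and Myd88 (0.97, SE 0.25, adjusted p 0.0209), an adaptor of Toll-like receptors, rose. Irf4, Tlr7, Irf8 and Irf5 fell, with values of -7.13 (SE 1.16, adjusted p 0.0018), -3.22 (SE 0.55, adjusted p 0.00175), -1.73 (SE 0.45, adjusted p 0.0205) and -1.70 (SE 0.27, adjusted p 0.00104). Irf4, a factor of plasma cells and one of the plasma cell markers above, read 66.0, 35.2 and 10.9 CPM in mutant 5-FU libraries and 0.577, 0.266 and 0.532 CPM in WT 5-FU libraries. It was the 1 gene of this list past the threshold between genotypes after 5-FU (6.35, SE 1.15, adjusted p 0.0171) and in the interaction (6.85, SE 1.3, adjusted p 0.0272). Under PBS 0 of the 22 passed between genotypes.

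Of 11 negative regulators, Socs3 rose in WT by 2.67 (SE 0.81, adjusted p 0.0419) and Trex1, which degrades stray DNA, fell by 0.99 (SE 0.28, adjusted p 0.0272), and none passed in the other comparisons. Socs3, which blocks cytokine receptor signalling, read 67.5, 73.6 and 123 CPM in WT 5-FU libraries against 4.10, 2.82, 1.72, 40.7 and 19.2 CPM in WT PBS libraries. Of 78 tested interferon-induced genes outside the set, 7 rose and 18 fell in WT, with a median of -0.33. Over all genes tested 5.55% rose and 9.31% fell, with a median of -0.11. In the mutant 1 rose (Oas1g) and 0 fell after 5-FU. Between genotypes 3 were higher in the mutant after 5-FU: Ifi211 (4.91, SE 0.98, adjusted p 0.0236), Slfn2 (2.07, SE 0.44, adjusted p 0.0278) and Phf11d (1.65, SE 0.40, adjusted p 0.0447). None passed under PBS or in the interaction. Among those that fell in WT were Ifi211 (-6.39, SE 1.02, adjusted p 0.00141), Ifi209 (-3.06, SE 0.58, adjusted p 0.00388), Gbp10 (-3.43, SE 0.70, adjusted p 0.00607) and Trim30d (-1.46, SE 0.31, adjusted p 0.00711). Ifitm6 fell too (-7.48, SE 1.41, adjusted p 0.00488), with 0.0911, 0 and 0.76 CPM in WT 5-FU libraries against 12.8 to 113 CPM in WT PBS libraries. Slfn9 rose (1.82, SE 0.35, adjusted p 0.0044).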

How the data were processed

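RNA-seq was made from sorted LSK cells of 16 samples (3 mutant and 3 WT after 5-FU, 5 mutant and 5 WT after PBS), with the NuGEN Ovation Ultralow Library System per the labels' protocols. The authors deposited RSEM gene tables with expected counts, which are estimated counts per gene and not normalized, and TPM, per the file headers. FastQC 0.11.2, RSEM 1.3.1 and the builds mm10 and GRCm38 are named in the submitters' processing notes. The aligner is not given in the sources used here, and neither is use of strand, so overlapping and antisense genes cannot be told apart. Expected counts were rounded to whole numbers, filtered with filterByExpr (minimum count 10) and scaled by TMM in edgeR 4.0.16 (R 4.3.3). One mean per group was fitted over all 16 libraries, and 5 contrasts were tested with the robust quasi-likelihood F test, two-sided, with Benjamini-Hochberg adjustment over 16482 genes and a threshold of 0.05. The SE is the log2 difference divided by the square root of F. Immunoglobulin share is the percentage of counts in immunoglobulin genes, and as a covariate its log2 was used, less the mean over libraries. Levels between genes were compared in the deposited TPM, and libraries in CPM. DESeq2 1.42.0 and limma 3.58.1 were alternatives, as were other filters, covariates, subsets of libraries, sums of near copies, the replicate number as a block and leaving out each library. The analysis code was tested on simulated counts.

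The members and gene lists were chosen with earlier results of these data known. Genes named with values are those past the threshold in a comparison, filled up to the 6 smallest p, and the 2 members of each role with the highest mean TPM; of the pathway lists, those past the threshold, at most 6 per comparison by p. Other genes named were chosen after their values were seen. Same-numbered PBS samples of the 2 genotypes deviated together (r of 0.16, 0.24, 0.49, 0.34 and 0.57 for numbers 1 to 5). Differently numbered ones had r from -0.44 to 0.45, the highest for mutant 4 with WT 5. A pairing by number is therefore not established. It was taken only for the fit with a replicate block, and the main fit had none. Loci are GENCODE M21 (GRCm38), in which 53237 of 53342 IDs (99.8%) were found. Library depth set a floor of 3 counts at 0.0798 to 0.272 CPM, for counting error only.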

Additional observations from a re-analysis of the deposited data

Results flagged for a closer look

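Among groups of 5 PBS libraries, 7 of 118 (5.93%) held a library that stood apart from the others by Dixon's criterion, where chance gives about 1 in 20. In mutant PBS replicate 3, Irf9 was low at 47.1 CPM (others 96.5 to 117 CPM), Gbp3 low at 13.9 CPM (42.1 to 52.7 CPM) and Irgm1 low at 42.8 CPM (96.7 to 111 CPM). In WT PBS replicate 3, Irgm1 was low at 60.2 CPM (95.2 to 114 CPM), Ifi27 high at 321 CPM (115 to 144 CPM) and Rtp4 high at 110 CPM (69.3 to 75.7 CPM). These 2 libraries had the largest immunoglobulin shares of their groups, 50.2% and 44.2%, and the part of that share was not tested for single libraries. In WT PBS replicate 4, Gbp9 was high at 40.0 CPM (7.70 to 9.43 CPM).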

How the results depend on the processing

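Between genotypes under PBS the count of interferon genes past the threshold was 0 under every setting run, the replicate block included. Percentages here are the share of all genes tested that passed under the same setting. For mutant against WT after 5-FU the count of 0 became 2 with DESeq2 (7.41%), 19 with limma-voom and sample quality weights (10 higher, 9 lower, 30.8%), 1 with code writing as a covariate (0.255%), 9 with only the 2 groups (14.1%) and 7 with a replicate block (9.25%). For 5-FU in WT the count of 10 became 27 with limma-voom (42.4%), 26 on log2(TPM + 1) (45.6%), 18 on log2(TPM + 0.1) (34.8%), 4 with code writing (6.14%), 0 with the immunoglobulin share (0.133%), 5 with only the 2 groups (15.1%), 3 within codes with no leading zero (4.66%), 1 within a code prefix (1.4%) and 31 with a replicate block (13 higher, 18 lower, 44.4%). For 5-FU in the mutant the count of 1 became 0 without a filter on low counts (1.05%), 0 on both TPM scales (0.94% and 0.825%), 2 with DESeq2 (5.03%), 6 with limma-voom (9.38%), 5 with code writing (5.38%), 3 within codes with a leading zero (3.73%), 5 within a code prefix (4.99%) and 5 with a replicate block (6.15%). The interaction count of 0 became 1 with DESeq2 (3.19%), 5 with limma-voom (4.47%), 1 with code writing (0.164%) and 3 with a replicate block (Gbp9, Samhd1 and Zbp1, 2.32%). Leaving out 1 library gave 0 to 15 calls for 5-FU in WT, 0 to 1 for 5-FU in the mutant, and 0 in the other comparisons. The shares of all genes in these fits are not given, so the range is not shown to be particular to the set. The PBS genotype difference of Gbp8 ranged from -0.71 to 0.06 when 1 library was left out. Between genotypes after 5-FU, same-numbered samples had r of 0.06, 0.11 and 0.02 (differently numbered ones -0.09 to 0.02). Between 5-FU and PBS samples of the same number, r was 0.01, -0.16 and 0.17 in WT (others -0.2 to 0.23). In the mutant it was 0.06, -0.02 and -0.13 (others -0.24 to 0.22). A pairing is not established there, and the block rests on shared numbers alone.

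Directions turned in the cases below, which do not cover every gene and setting, and the cause was not tested. With the immunoglobulin share as a covariate, the WT response was 1.87 for Isg20, 2.23 for Zbp1, 0.81 for Isg15, 0.43 for Samhd1 and -0.07 for Nlrc5. The mutant against WT difference after 5-FU was then -1.65 for Zbp1, -0.47 for Isg15, -1.95 for Isg20 and 0.01 for Nlrc5, and the interaction -1.74 for Zbp1, -2.10 for Isg20 and -0.46 for Isg15. The share in WT 5-FU libraries did not overlap that of any other group, so these values could not separate the share from the groups. On log2(TPM + 1) and log2(TPM + 0.1), the WT response of Gbp9 was 0.09 and 0.29, that of Isg15 0.12 and 0.13 and that of Samhd1 1.16 and 1.19 (all genes 1.01 and 1.3), and the mutant response of Irf1 was 0.01 and 0.02 (all genes 0.33 and 0.48). On both TPM scales Samhd1 differed by -0.27 between genotypes after 5-FU (all genes -0.59 and -0.76), with an interaction of -0.22 (all genes -0.68 and -0.86). Gbp8 differed between genotypes under PBS by 0.06 without WT PBS replicate 4 and by 0.09 within codes with a leading zero.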

Other observations

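Among the 3 mutant 5-FU libraries, replicate 1 was the highest for 37 of 59 genes (62.7%, against 39.8% of all genes), and replicate 2 the lowest for 37 (62.7%, against 31.8%). Replicates 1, 2 and 3 had immunoglobulin shares of 26.6, 16.9 and 5.69%. Replicate 3, with the smallest share, was the lowest for 17 of 59 genes (28.8%, against 29.0% of all genes). The part of the share was not tested. These patterns were looked for after the values were seen.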
